A study of Mus musculus with 8 samples.

Results

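Caspases and necroptosis kinases carry out the programmed forms of cell death that end in apoptosis, necroptosis or pyroptosis. The set described here was defined by name as Casp1, Casp4, Casp8, Casp12, Ripk1, Ripk3 and Mlkl. Of these 7 genes, 6 had a probe set with a single gene symbol in the platform annotation, with 7 probe sets in each value table because Casp12 has 2. These 6 genes stand among 18193 genes with such a probe set in the Twist1 table and 17084 in the Twist1/p53 table. Ripk1 is not analysed here.

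Casp8 is the initiator caspase that is recruited to death receptors through the adaptor Fadd, and it also holds necroptosis in check by cleaving the kinases of that pathway. When Casp8 is inactive, Ripk1 can act through Ripk3, the kinase that phosphorylates Mlkl, and Mlkl then permeabilises the plasma membrane. Casp1, Casp4 and Casp12 form the inflammatory branch of the family. Casp1 is activated in inflammasomes and matures interleukins, Casp4 (called caspase-11 in the mouse) senses bacterial lipopolysaccharide in the cytosol, and Casp12 has been tied to inflammasome control and to endoplasmic reticulum stress. In skin, keratinocytes that lose this balance die by necroptosis and inflame the tissue.

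Expression was measured in epithelial cells sorted from mouse skin tumours that had been induced with the carcinogen DMBA and the promoter TPA. The 8 arrays form 4 groups of 2, and every mouse received 5 doses of 2 mg tamoxifen. The Twist1 deletion group had the genotype K14CreER:Twist1fl/fl and its controls Twist1fl/fl, and the Twist1/p53 deletion group had the genotype K14CreER:Twist1fl/fl:p53fl/fl and its controls Twist1fl/fl:p53fl/fl. The keratin 14 promoter drives the tamoxifen-activated recombinase in basal epithelial cells, so loss in other cells is not part of the model, and the labelled genotypes of the controls carry no Cre. All mice were described as littermates on mixed strain backgrounds, and their ages are not stated. The sort kept live cells that were positive for Epcam and negative for lineage markers. The comparisons ask what loss of Twist1, and loss of Twist1 together with p53, does to these tumour cells. Deletion arrays were set only against control arrays of the same table, because the 2 tables come from different array types and were normalized separately, and a level in one table cannot be set against a level in the other. Values are the deposited log2 signals, and a probe set's level says nothing about another probe set's.

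Krt14 and Krt5 of basal keratinocytes were at or above the 99.9th percentile of gene signals in both tables and Epcam at or above the 95th. The pan-leukocyte gene Ptprc lay under the filter level of each table (4.49 in the Twist1 table and 3.98 in the Twist1/p53 table), and the endothelial gene Pecam1 read between 4.62 and 5.38. Of 8 fibroblast genes, the receptor Pdgfra alone lay under the filter level in the Twist1/p53 table, where the collagen genes Col1a1 (10.10 and 10.33) and Col3a1 (9.81 and 9.96) were high in the controls. Twist1 itself stood at 5.20 and 7.18 on the control arrays of the Twist1 table, with 3.81 and 3.90 after deletion. On the Twist1/p53 arrays it went from 6.15 and 6.04 to 4.82 and 5.01. Xist read between 10.89 and 11.87 on the control arrays of both tables and between 3.66 and 6.98 on the deletion arrays, so sex, Cre and the deletion cannot be told apart within a comparison. Whether the arrays of a group come from separate mice is given only by their identifiers. The limma p-values set a change against a spread between these arrays that is partly borrowed from all genes. In bulk samples of this kind, fewer cells of a type and less RNA per cell cannot be told apart.

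After deletion of Twist1 with p53, Casp12 rose, Casp4 and Mlkl had higher means that did not pass the test, and Casp1, Casp8 and Ripk3 overlapped with their controls. Of the 6 genes tested, 1 rose and none fell at an adjusted p under 0.05 (limma, Benjamini-Hochberg over 13667 genes). Over all genes tested, 1.8% were called, 1.18% as higher and 0.622% as lower. Control and deletion values did not overlap for 3 of the 6, all higher after deletion, where 24.5% of all genes were apart in that direction and 54.3% in either. The median change of the 6 was 0.31 on the log2 scale, beside -0.02 over all genes.

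Casp12 was the member that passed. Its probe set with the higher signal gave 4.49 and 4.08 on the Twist1/p53 control arrays, against 5.89 and 6.21 after deletion. Both deletion arrays lay above both controls. The change was 1.77 (SE 0.20, 95% interval 1.23 to 2.31, n = 2 per group), a 3.41-fold rise (limma, adjusted p = 0.0397). The other Casp12 probe set gave 3.47 and 3.43 without deletion, under the filter level of 3.98, against 4.39 and 4.12 with it. It was higher by 0.81 (SE 0.12), with adjusted p = 0.0602 in a limma fit over every probe set. The control signal of the gene was therefore close to the low end of the table. The call ended without the intensity trend (limma adjusted p = 0.0502), and with the filter at the 50th percentile Casp12 was not tested. The call also ended without control 1 (change 1.97) and without control 2 (1.57), as did every other call of that comparison. Over all alternatives in which it was tested, its change stayed between 1.29 and 1.97.

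Casp4 was higher by a similar amount with more spread. Its control values were 7.35 and 6.87 and its deletion values 8.45 and 9.17, and the groups did not overlap. The change of 1.70 (SE 0.31, 95% interval 0.88 to 2.53), or 3.26-fold, had limma adjusted p = 0.0817 and so did not pass. Without deletion array 1 the change was 2.07 (limma adjusted p = 0.000891) and without deletion array 2 it was 1.34 (adjusted p = 0.0041). In those fits the lone deletion array is assumed to vary like the controls, and 27.4% and 24.4% of all genes were called, so a call there says little about Casp4. Over all alternatives its limma adjusted p ran from 0.000891 to 0.487. Casp1, the third inflammatory caspase, had control values of 9.52 and 9.29 and deletion values of 9.62 and 9.27. Its values overlapped, and the difference of 0.04 (SE 0.17, limma adjusted p = 0.92) has a 95% interval from -0.41 to 0.49.

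These 3 caspase genes are direct neighbours on mouse chromosome 9, in the order Casp1, Casp4, Casp12 among the protein-coding genes of RefSeq (assembly GRCm38.p6). Of the 3 protein-coding genes on each side, 4 were tested in the Twist1/p53 comparison. Kbtbd3 (-0.08), Msantd4 (0.05) and the glutamate receptor gene Gria4 (-0.30) lie beyond Casp1, and the dynein gene Dync2h1 (0.25) lies beyond Casp12. None of them passed, with limma adjusted p between 0.176 and 0.932. The 250 bases before the start site of each caspase gene are shown because the 3 genes lie side by side. Casp12 rose, Casp4 had a higher mean that did not pass, and Casp1 overlapped with its controls. The changes of the 3 genes were not tested against each other. All 3 are on the plus strand, in GRCm38.p6, at chr9:5298267-5298516 for Casp1, chr9:5308599-5308848 for Casp4 and chr9:5345226-5345475 for Casp12. Capitals mark matches of the motifs named after the sequences.
Casp12: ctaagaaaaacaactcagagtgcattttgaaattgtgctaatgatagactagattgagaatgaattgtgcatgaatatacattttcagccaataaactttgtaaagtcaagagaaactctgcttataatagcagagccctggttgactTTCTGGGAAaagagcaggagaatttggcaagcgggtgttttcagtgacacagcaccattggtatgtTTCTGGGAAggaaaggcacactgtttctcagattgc
Casp4: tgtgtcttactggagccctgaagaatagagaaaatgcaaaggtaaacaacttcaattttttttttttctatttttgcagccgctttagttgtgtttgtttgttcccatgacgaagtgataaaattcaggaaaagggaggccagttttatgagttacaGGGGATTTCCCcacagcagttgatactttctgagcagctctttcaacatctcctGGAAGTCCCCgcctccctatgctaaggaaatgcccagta
Casp1: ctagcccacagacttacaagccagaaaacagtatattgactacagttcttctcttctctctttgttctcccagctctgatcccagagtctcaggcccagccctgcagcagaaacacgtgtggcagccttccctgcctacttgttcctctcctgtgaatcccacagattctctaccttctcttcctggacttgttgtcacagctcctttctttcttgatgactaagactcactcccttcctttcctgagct

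In the Casp12 window the letters TTCNNNGAA, the form of the STAT-binding element known as GAS, occurred at 2 places, from -102 to -94 and from -36 to -28 counted from the start site at 1, both with the bases TTCTGGGAA. This motif reads the same on both strands and was found in 8.3% of 32851 RefSeq promoter windows of 300 bases. In the Casp4 window the NF-kappaB consensus, a 10-base motif searched on both strands, matched 4 times. Overlapping matches ran from -93 to -83 and a separate match from -39 to -30. That consensus was found in 8.46% of all windows. A second Casp4 start site, 11 bases downstream, has the same matches in its window. The core of the interferon-stimulated response element, which reads GAAA, any 2 bases and again GAAA on either strand, was found in 3.44% of all windows and in none of those of Casp1, Casp4, Casp8, Casp12, Ripk3 and Mlkl. The windows of Casp1, Casp8, Ripk3 and Mlkl held none of these 3 motifs. A match is a stretch of letters and no measured binding.

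In the same comparison, the genes of the death receptor and necroptosis branch gave smaller differences, none of which passed. Mlkl, the pore-forming executor of necroptosis, stood at 7.30 and 7.28 without deletion and reached 7.93 and 7.63 with it. Both deletion arrays were higher, by 0.49 on average (SE 0.17, 95% interval 0.05 to 0.93, limma adjusted p = 0.20), which did not pass. Ripk3, the kinase that activates Mlkl, had 8.23 and 8.26 in controls against 8.65 and 8.09. The deletion arrays fell on either side of the controls, and the difference was 0.13 (SE 0.22, 95% interval -0.46 to 0.72, limma adjusted p = 0.78). Casp8 had 8.23 and 7.96 in controls against 7.88 and 8.12, with overlapping groups and a difference of -0.10 (SE 0.17, 95% interval -0.55 to 0.36, limma adjusted p = 0.80). In the fit without deletion array 2, where 24.4% of all genes were called, Mlkl was at 0.64 (limma adjusted p = 0.0125) and Ripk3 at 0.41 (adjusted p = 0.0345). Without deletion array 1 Ripk3 was at -0.15 (limma adjusted p = 0.37). Their limma adjusted p over all alternatives ran from 0.0125 to 0.836 for Mlkl and from 0.0345 to 0.98 for Ripk3.

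**Figure D1:**
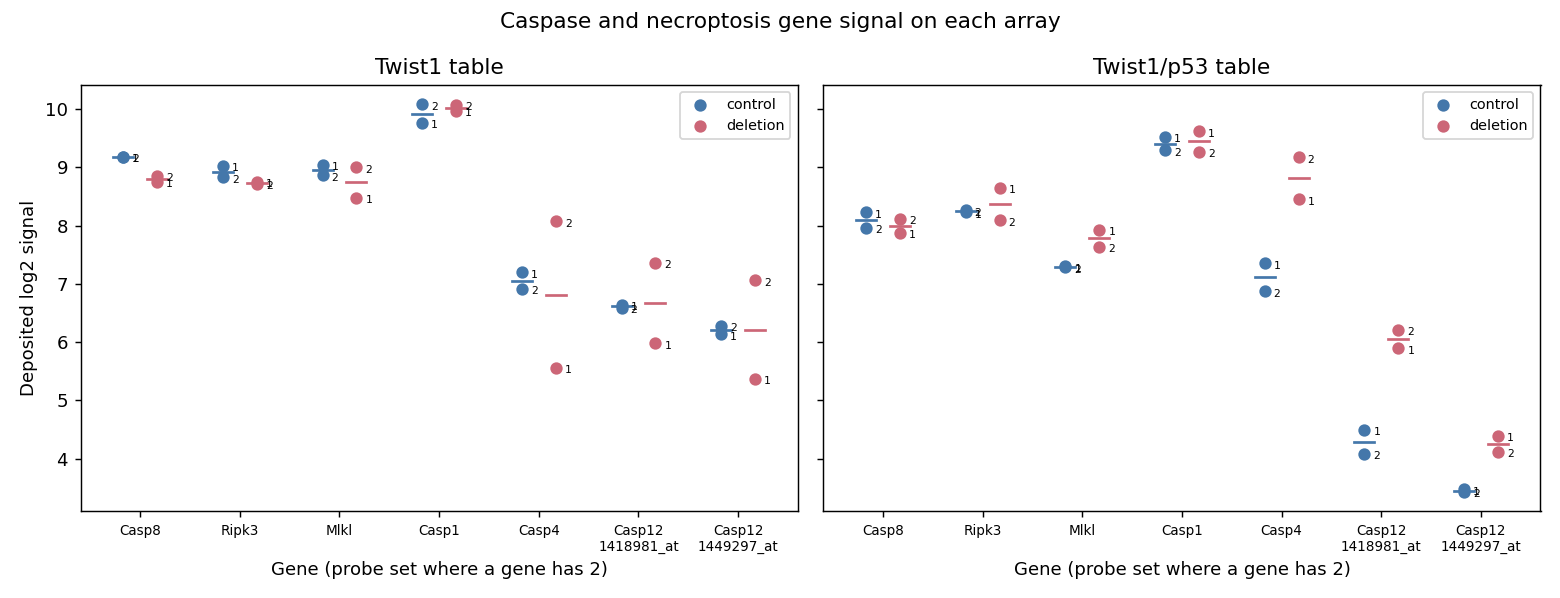
Deposited log2 signal (vertical axis) of each probe set of the 6 genes on every array, for controls (blue) and deletions (red) of the Twist1 table (left) and the Twist1/p53 table (right); small digits are replicate numbers and short lines are group means. In the Twist1/p53 table both Casp12 probe sets, Casp4 and Mlkl lie above their controls on both deletion arrays, whereas in the Twist1 table the deletion arrays of Casp4 (5.56 and 8.07) and Casp12 (5.98 and 7.36) lie on opposite sides of the controls. Levels are not comparable between probe sets or tables.

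After deletion of Twist1 alone, none of the 6 genes passed (limma, Benjamini-Hochberg over 14554 genes, of which 0.0344% were called), and 1 of them, Casp8, had an unadjusted p under 0.05, as did 9.17% of all genes. Casp8 had 9.18 on both control arrays, against 8.75 and 8.85 after deletion. Both deletion arrays were lower, by 0.38 on average (change -0.38, SE 0.14, 95% interval -0.74 to -0.03, limma adjusted p = 0.54). Ripk3 was also lower on both deletion arrays, with 9.02 and 8.83 against 8.75 and 8.72 (change -0.19, SE 0.15, 95% interval -0.57 to 0.19). These 2 of 6 genes had groups that did not overlap, both lower after deletion. Of all genes, 24.7% were apart in that direction and 42.5% in either. Mlkl read 9.04 and 8.86 against 8.48 and 9.0 (change -0.21, SE 0.22, 95% interval -0.78 to 0.36), and its groups overlapped. Casp1 read 9.76 and 10.08 against 9.97 and 10.07 (change 0.10, SE 0.16, 95% interval -0.32 to 0.52). The median of the 6 changes was -0.20, beside -0.03 over all genes.

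Casp4 and Casp12 differed between the 2 Twist1 deletion arrays far more than between the controls. Casp4 had control values of 7.20 and 6.91, with 5.56 in deletion array 1 and 8.07 in deletion array 2. Its deletion arrays differed by at least as much as this in 0.467% of all genes. Casp12 had 6.64 and 6.59 in controls against 5.98 and 7.36, a gap reached by 2.56% of all genes. Its other probe set read 6.13 and 6.28 against 5.37 and 7.06. In each case array 1 was below both controls and array 2 above both, an arrangement that 9.14% of all genes showed, and 20.2% showed this or its opposite. The mean changes of -0.24 for Casp4 (SE 0.81, 95% interval -2.33 to 1.85) and 0.05 for Casp12 (SE 0.46, 95% interval -1.14 to 1.25) therefore stand for no single array. Without deletion array 1 the changes were 1.01 and 0.74, and without deletion array 2 they were -1.49 and -0.63, and none of the 4 values passed in limma (adjusted p between 0.12 and 0.29, and over all alternatives from 0.121 to 1 for Casp4 and from 0.176 to 1 for Casp12). In the labels, the mouse identifier of deletion array 1 has another leading number than those of the other 3 arrays of its table, and what that number stands for is not given. The class II antigen presentation genes H2-Aa (5.92 and 9.61) and Cd74 (6.17 and 8.52) were split between the same deletion arrays, beside controls at 5.66 and 7.23 for H2-Aa and 6.24 and 7.09 for Cd74. The summed linear signal of the Langerhans and dendritic cell list was 1047 and 1513 in controls and 1195 and 3651 in the deletion arrays. H2-Ab1 (7.39 and 9.48) and Mfge8 (9.53 and 10.67) of that list were also higher on deletion array 2. Itgax (4.42 and 4.63) and Flt3 (5.21 and 5.56) differed less. Cd207, which defines Langerhans cells, read 5.22 and 4.94 in controls against 5.12 and 4.98. Cd86, Clec10a and Cd209a lay under the filter level. H2-Aa and Cd74 were singled out after their values were seen, and their part in the Casp4 and Casp12 values was not tested.

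**Figure D2:**
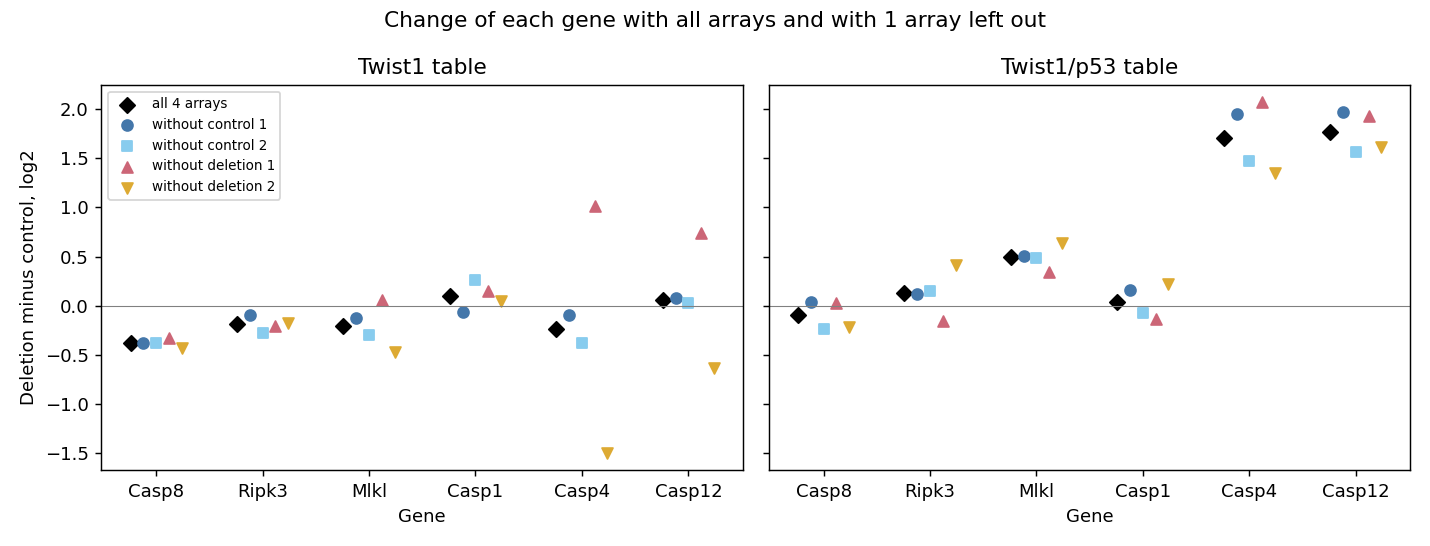
Change of each gene (deletion minus control, log2, vertical axis) with all 4 arrays of a table (black diamonds) and with 1 array left out (coloured symbols), for the Twist1 table (left) and the Twist1/p53 table (right). In the Twist1/p53 table Casp4 stays between 1.34 and 2.07 and Casp12 between 1.57 and 1.97, whereas in the Twist1 table Casp4 runs from -1.49 to 1.01 and Casp12 from -0.63 to 0.74 depending on which deletion array is left out.

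The difference between the deletions was tested in a fit of all 8 arrays, subtracting the change after Twist1 deletion from that after Twist1/p53 deletion. None of the 6 genes passed (limma, adjusted over 13296 matched genes, of which 0.173% were called), and 2 had an unadjusted p under 0.05, as did 10.4% of all genes. The difference was 1.71 for Casp12 (SE 0.58, 95% interval 0.34 to 3.09, adjusted p = 0.39) and 1.94 for Casp4 (SE 1.02, 95% interval -0.45 to 4.34, limma adjusted p = 0.57). Without Twist1 deletion array 2 both passed, with 2.40 for Casp12 (limma adjusted p = 0.0343, and 0.0343 to 0.939 over the alternatives) and 3.20 for Casp4 (adjusted p = 0.0447, and 0.0447 to 0.976). In that fit 1 array stands for Twist1 deletion and 144 genes were called, against 23 with all arrays. For Mlkl the difference was 0.70 (SE 0.29, 95% interval 0.01 to 1.38, limma adjusted p = 0.48). Ripk3 differed by 0.32 (95% interval -0.33 to 0.97), Casp8 by 0.29 (-0.22 to 0.80) and Casp1 by -0.06 (-0.64 to 0.52). The rise of Casp12 after the double deletion is thus not shown to differ from its change after Twist1 deletion alone.

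**Figure D3:**
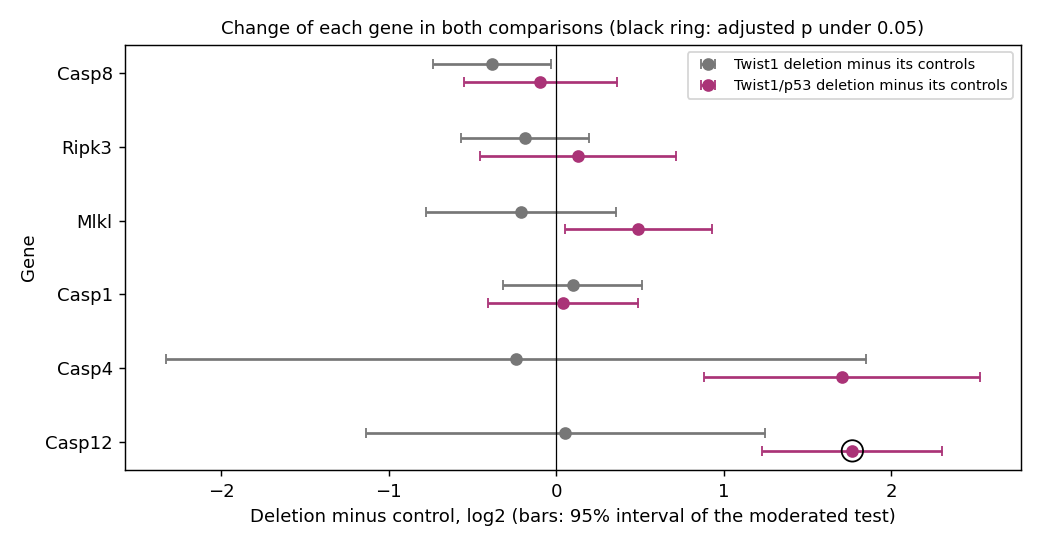
Deletion minus control (log2, horizontal axis) of each of the 6 genes with the 95% interval of the moderated test, for Twist1 deletion (grey) and Twist1/p53 deletion (purple); a black ring marks an adjusted p under 0.05. Only Casp12 after Twist1/p53 deletion carries the ring, at 1.77, and the grey intervals of Casp4 (-2.33 to 1.85) and Casp12 (-1.14 to 1.25) are the widest.

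Of 13296 matched genes, those nearest to Casp12 over the 8 arrays, by the root mean square difference of values centred on the controls of each table, were Lgals9 (0.18), Nr4a3 (0.18) and Ddx58 (0.26). Lgals9, which encodes a galectin, differed by -0.23 after Twist1 deletion and 1.68 after Twist1/p53 deletion (limma adjusted p = 0.0282). The orphan nuclear receptor gene Nr4a3 differed by 0.33 and 1.70 (limma adjusted p = 0.0209). Ddx58, the cytosolic RNA sensor RIG-I, differed by -0.13 and 1.98 (limma adjusted p = 0.0246). They were chosen on these values, so their likeness to Casp12 on any array is a description.

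No other caspase was called. Of the 4 tested, Casp2, Casp6, Casp9 and Casp14, none passed in either comparison. Their median was -0.25 after Twist1/p53 deletion and -0.04 after Twist1 deletion. Casp14, the caspase of cornification, had 9.57 and 9.79 in the Twist1/p53 controls against 6.97 and 8.91 (change -1.74, SE 0.65, limma adjusted p = 0.23). Casp6, an executioner caspase, was at 0.57 (SE 0.22, limma adjusted p = 0.24). After Twist1 deletion, Casp2 was lowest at -0.32 (SE 0.16) and Casp14 highest at 0.13 (SE 0.20). That Casp14 value is from another probe set than the one above, which differed by -0.93 after Twist1 deletion.

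Among 10 triggers and regulators of necroptosis, 2 rose after Twist1/p53 deletion and none fell. Over all genes, 1.18% rose and 0.622% fell. The median change of the 10 was 0.17. Zbp1, a nucleic acid sensor that recruits Ripk3, went from 4.22 and 4.27 to 7.61 and 7.76, a 10.8-fold rise (change 3.44, SE 0.14, limma adjusted p = 0.00846). Tlr3, a receptor for double-stranded RNA that signals to Ripk3 through its adaptor, went from 6.23 and 6.12 to 7.36 and 7.49 (change 1.25, SE 0.15, limma adjusted p = 0.0417). The lowest of the list by moderated t was the kinase cochaperone Cdc37 at -0.28 (SE 0.08, limma adjusted p = 0.17). After Twist1 deletion none of the 10 passed, from -0.76 for the mitotic kinase Aurka to 0.36 for Zbp1. The difference between the deletions passed for Zbp1 in its matched probe set (3.44 after Twist1/p53 deletion against -0.12, limma adjusted p = 0.00188) and did not pass for Tlr3 (limma adjusted p = 0.37). Without either Twist1/p53 control array no gene of that comparison passed in limma, these 2 included (1037 and 1134 genes had an unadjusted p under 0.05).

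Among the inflammasome and pyroptosis genes, 1 of 17 tested rose after Twist1/p53 deletion, where 1.18% of all genes rose. The list median was 0.42. Gbp2, a guanylate-binding protein that helps to expose bacterial lipopolysaccharide to Casp4, went from 4.68 and 4.49 to 6.99 and 7.58 (change 2.71, SE 0.24, limma adjusted p = 0.0246). The difference between the deletions did not pass for Gbp2 (2.71 against 0.33 after Twist1 deletion, limma adjusted p = 0.48). On the Twist1 arrays another Gbp2 probe set read 5.45 and 6.15 in controls against 4.88 and 7.43 after deletion. The Casp1 substrate Il18 had the lowest moderated t and read 7.89 and 7.60 against 4.82 and 5.98 (change -2.35, SE 0.42, limma adjusted p = 0.0785). After Twist1 deletion none of 16 passed. Their range ran from -0.85 (SE 0.45) for the gasdermin gene Gsdme to 1.01 (SE 0.56) for Il1a, the alarmin interleukin 1 alpha.

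No gene of the death receptor branch passed in either comparison. After Twist1/p53 deletion the 9 receptors and ligands tested had a median of -0.10, from -0.67 to 1.19, with the TRAIL gene Tnfsf10 highest by moderated t (4.36 and 4.24 against 5.27 and 5.72, change 1.19, SE 0.18, limma adjusted p = 0.0637) and the receptor Fas lowest (-0.39, SE 0.16, limma adjusted p = 0.27). The 20 adaptors and brakes had a median of -0.16. The A20-binding inhibitor Tnip1 was at 0.72 (SE 0.12, limma adjusted p = 0.0709), and Tradd, the adaptor of the TNF receptor, at -0.53 (SE 0.16, limma adjusted p = 0.16). After Twist1 deletion these lists had medians of 0.00 and -0.13, with Tnf at -0.68 (SE 0.34), the TRAIL receptor Tnfrsf10b at 0.35 (SE 0.16), Ikbkg at -0.40 (SE 0.21) and Sharpin at 0.30 (SE 0.15).

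The mitochondrial branch showed no call either. Of 10 genes downstream of mitochondria, the median was -0.02 after Twist1/p53 deletion and -0.06 after Twist1 deletion. Dffa, the inhibitor of the apoptotic nuclease Dffb, had the lowest moderated t in both, at -0.92 (SE 0.18, limma adjusted p = 0.0931) and -0.52 (SE 0.16, limma adjusted p = 0.52). Dffb was the highest after Twist1/p53 deletion at 0.26 (SE 0.19), and the mitochondrial nuclease Endog after Twist1 deletion at 0.21 (SE 0.23). Of 12 BCL2 family genes, the median was 0.04 after Twist1/p53 deletion and 0.16 after Twist1 deletion. The killer gene Bcl2l11 (Bim) was highest by moderated t in both, at 0.49 (SE 0.18) and 0.59 (SE 0.18), and the survival gene Bcl2l2 was lowest after Twist1/p53 deletion at -0.65 (SE 0.20). After Twist1 deletion the lowest was Bak1, a pore-forming killer gene, at -0.07 (SE 0.20).

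**Figure D4:**
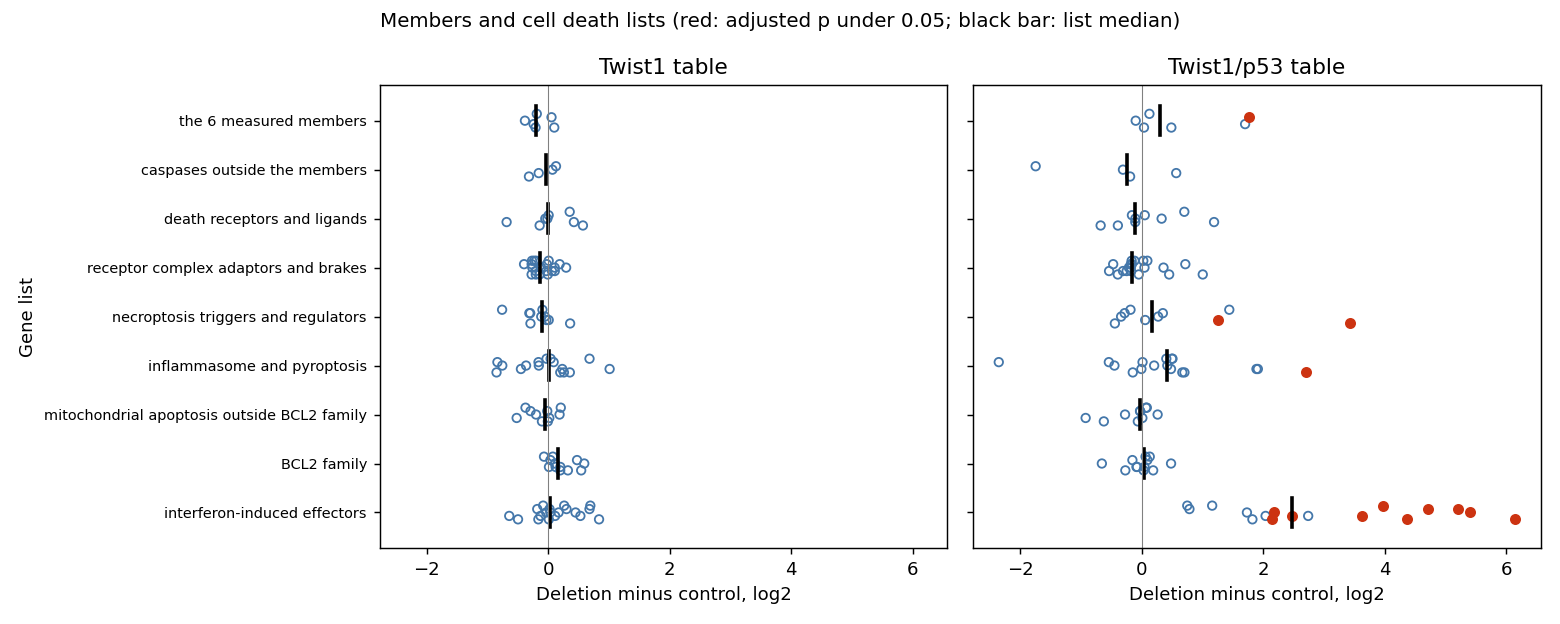
Deletion minus control (log2, horizontal axis) of the 6 genes and of 8 gene lists in both tables; each point is a gene, red points have an adjusted p under 0.05 and black bars are list medians. In the Twist1/p53 table the red points are Casp12, Zbp1 and Tlr3, Gbp2 and 10 interferon-induced effectors, and in the Twist1 table there are none.

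Interferon-induced genes and some antigen presentation genes rose on the same Twist1/p53 arrays as Casp12. Of 17 interferon-induced effectors tested, 10 rose and none fell, with a median of 2.48, where 1.18% of all genes rose. All 17 had deletion values above both controls, as did 24.5% of all genes. The 6 with the highest moderated t were the interferon-induced Ifi27l2a (6.14, SE 0.16), the antiviral enzyme gene Rsad2 (5.40, SE 0.18), the antiviral Oasl2 (4.72, SE 0.20) and Ifit1 (4.37, SE 0.19), the ISG15 protease gene Usp18 (3.97, SE 0.18) and Rtp4 (5.20, SE 0.24), with limma adjusted p between 0.0049 and 0.00869. Usp18 had a control mean of 3.91, under the filter level of 3.98, so it was tested only because its deletion arrays were high (7.73 and 8.02). The lowest of the list by moderated t was the antiviral GTPase gene Mx1 at 0.79 (SE 0.23, limma adjusted p = 0.16). The summed linear signal of the list was 653 and 629 in the controls and 6770 and 8581 after deletion. After Twist1 deletion none of 19 rose or fell (median 0.04), from -0.64 for Ifit2 to 0.84 for Ifit1, and the sums over the list were 1591 and 1495 against 1628 and 1593. The leukocyte list of 9 genes summed to 290 and 290 against 337 and 261 in the Twist1/p53 table, with no call among the 8 tested and Ptprc under the filter level. Of those 8, 4 had higher means and 4 lower. Their groups did not overlap for 3 that were higher and 1 that was lower. The Langerhans and dendritic cell list summed to 1374 and 1436 against 3598 and 3294, with rises of H2-Ab1 and Cd74 among 7 tested, while Cd207, which defines Langerhans cells, lay under the filter level with the dendritic cell genes Clec10a and Cd209a. The list of macrophages, monocytes and neutrophils summed to 1602 and 2054 against 5662 and 9471, and S100a8 (9.42 and 9.73 against 11.41 and 12.28) and S100a9, which keratinocytes also make, were its brightest genes. Adgre1, Lyz2, Fcgr3, Cybb and Csf3r of that list lay under the filter level. None of its 7 tested genes passed, though 6 had higher means. In 5 of the 7 both deletion arrays lay above both controls, where 24.5% of all genes did. Among them were Cd14 (5.50 and 5.61 against 6.30 and 7.49) and Mpeg1 (4.81 and 4.53 against 5.33 and 5.24). Cd68 was lower on both deletion arrays (6.46 and 6.31 against 6.24 and 5.69). The fibroblast list summed to 2175 and 2470 against 1348 and 362. Its brightest genes were Col1a1 (10.10 and 10.33 against 8.55 and 6.84, limma adjusted p = 0.116) and Col3a1 (9.81 and 9.96 against 9.26 and 6.44, limma adjusted p = 0.309), which did not pass. Among 7 tested, the only fall called was that of the dim matrix gene Lum (4.71 and 4.94 against 3.69 and 3.75), where 0.622% of all genes fell. Both Lum deletion values lay under the filter level of 3.98, so Lum was tested only because its control arrays were higher. Dcn of that list was higher, with 5.04 and 4.92 against 7.81 and 5.85 (change 1.85, limma adjusted p = 0.22). The part of these cells in the Casp12 and Casp4 values was not tested.

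The 3' minus 5' signal differences of Gapdh and Actin did not separate the Twist1/p53 groups. On the 4 arrays the difference was between -0.04 and 0.06 for Gapdh and between -0.3 and -0.18 for Actin. The poly-A spike-ins averaged between 3.68 and 3.74, under the filter level of 3.98, and so could not separate the groups. In the Twist1 table the spike-ins averaged 7.14 and 7.88 in the controls and 8.16 and 9.03 after deletion. The Gapdh difference was 0.04 and 0.03 against 0.22 and 0.30, and the Actin difference 0.63 and 0.63 against 0.95 and 0.78. These stand beside the lower Casp8 and Ripk3 values of that comparison, and their part was not tested.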

How the data were processed

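Total RNA of sorted tumour epithelial cells was hybridised to 8 Affymetrix arrays at a facility, per the labels. The deposited tables hold log2 signals, a scale read from the values (2.76 to 14.45, array medians within a table nearly equal). How the authors summarised probe sets was not given in the sources used here. Probe sets with 1 symbol in the platform annotation were kept (34945 of 45101 in the Twist1 table and 28864 of 45083 in the Twist1/p53 table).

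From these values, each gene took its probe set with the highest mean, and genes under the 20th percentile were left out. Each deletion was compared with its controls by limma 3.58.1 (R 4.3.3; lmFit, eBayes with intensity trend, Benjamini-Hochberg, threshold 0.05). The difference was fitted over all 8 arrays. Exact permutation of 2 against 2 arrays cannot go below p = 0.333. The fits were tested on simulated data. Promoter windows came from RefSeq (GRCm38.p6).

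Named were all probe sets of the members, the 3 nearest genes of each called member, and, of each list, called genes (at most 6 by moderated t) and the highest and lowest by moderated t. The members and lists were chosen with earlier results of these data known. Alternatives were quantile normalization, centring, other filters, mean or every probe set, variance models, the replicate block and each array left out. No p53 level is reported.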

Additional observations from a re-analysis of the deposited data

How the results depend on the processing

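In the Twist1 comparison the count of members called was 0 under all 14 alternatives (limma), with 0 to 4 members at an unadjusted p under 0.05 (4 without deletion array 2, where 1977 genes were). In the Twist1/p53 comparison the count of 1 fell to 0 with the filter at the 50th percentile (where Casp12 was not among the 5 members tested), without the intensity trend and with the replicate number as a block, and rose to 2 at an adjusted p of 0.10 (Casp12 and Casp4). At these settings 2 to 3 members had an unadjusted p under 0.05. Leaving out 1 array gave between 0 and 4 members: 0 without either control, where no gene was called, 2 without deletion array 1, where 27.4% of all genes were, and 4 without deletion array 2, where 24.4% were. The lone array of such a fit is assumed to vary like the other group. For the difference the count stayed at 0 except among left-out arrays, where it ran from 0 to 2 and was 2 without Twist1 deletion array 2.

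The labels give both groups of a comparison the replicate numbers 1 and 2, without saying that they pair mice. The deviations of same-numbered arrays correlated at 0.03 in the Twist1 table and -0.02 in the Twist1/p53 table. With the replicate block the count of genes called fell from 246 to 4 after Twist1/p53 deletion, from 5 to 0 after Twist1 deletion and from 23 to 6 for the difference (limma), and Casp12 had adjusted p = 0.116.

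Directions that turned did so only when 1 array was left out. The ranges over left-out arrays were -0.064 to 0.26 for Casp1, -1.49 to 1.01 for Casp4, -0.47 to 0.055 for Mlkl and -0.63 to 0.74 for Casp12 after Twist1 deletion. After Twist1/p53 deletion they were -0.14 to 0.22 for Casp1, -0.23 to 0.04 for Casp8 and -0.15 to 0.41 for Ripk3, and for the difference -0.24 to 0.12 for Casp1. The cause was not tested. With 2 arrays per group and no scanner files, neither background nor the spread between mice could be examined, and Casp12 lies near the dim end of the Twist1/p53 table.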
